A study of Mus musculus with 24 samples.

Results

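Cholesterol is built in the liver from acetyl-CoA in a chain of enzymes, and the genes of that chain were followed here in mouse liver under diets low in methionine. The 29 genes were listed by symbol for their roles, with earlier results of these data known. Their counts beside those of all genes are therefore descriptions. Of the 29, 6 encode SREBP2 and the proteins that control it, 8 the mevalonate and isoprenoid steps, and 3 the steps that make and cyclise squalene. A further 9 encode the steps that turn lanosterol into cholesterol, and 3 serve sterol uptake, transport or esterification. The set is 29 of the 15161 genes in the deposited count table, and all 29 were among the 13441 genes with enough reads to test. RNA came from the liver of male C57BL6/J mice aged 4 months, in 4 diet groups of 6 libraries. The casein MR group ate a methionine-restricted (MR) diet with 0.17% methionine whose protein was casein, oxidised as the series describes it. The casein control group ate a casein diet with 0.86% methionine. The elemental MR group ate free amino acids with 0.17% methionine, and the elemental control group free amino acids with 0.86% methionine. The labels do not say whether the control casein was oxidised too, so restriction and oxidation cannot be told apart in the casein comparison. The sources used here do not state how long the diets were fed or that each library is a separate mouse. The p-values therefore describe spread among libraries, part of which may be technical.

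SREBP2, the product of Srebf2, is the transcription factor that switches on cholesterol synthesis and uptake. It is made in the membrane of the endoplasmic reticulum, where INSIG proteins hold it together with its escort SCAP while sterols are plentiful. When sterols run low, SCAP carries it to the Golgi, the site-1 and site-2 proteases (Mbtps1 and Mbtps2) cut it free, and its active end enters the nucleus. It binds sterol regulatory elements, often beside NF-Y boxes (CCAAT), in promoters of nearly every enzyme of the pathway and of its own brake Insig1. In liver, most of the Insig2 message is known to come from a transcript that is not driven by SREBP2 and that falls with insulin.

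Promoter stretches of 4 genes are shown because they hold these letters. The RefSeq windows (250 bases before to 50 after a start) were taken for 24 of the 29 genes, on GRCm38.p6. Capitals mark TCACNCCA, a sterol regulatory element core, and CCAAT, each on either strand, so that ATTGG is CCAAT on the other strand. Hmgcs1 is shown at chr13:119690160-119690325 (plus strand), Msmo1 at chr8:64733614-64733770 (minus strand), Srebf2 at chr15:82147092-82147153 (plus strand) and Mvd at chr8:122443430-122443497 (minus strand), each 5′ to 3′ on its gene's strand.
Hmgcs1: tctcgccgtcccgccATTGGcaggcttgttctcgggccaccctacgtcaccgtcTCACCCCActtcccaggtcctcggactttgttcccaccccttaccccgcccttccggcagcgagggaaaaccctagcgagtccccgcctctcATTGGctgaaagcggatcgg
Msmo1: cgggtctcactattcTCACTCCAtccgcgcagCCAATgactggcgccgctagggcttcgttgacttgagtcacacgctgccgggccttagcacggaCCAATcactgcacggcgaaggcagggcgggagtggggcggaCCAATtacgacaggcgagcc
Srebf2: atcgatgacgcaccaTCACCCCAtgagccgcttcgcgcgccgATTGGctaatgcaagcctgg
Mvd: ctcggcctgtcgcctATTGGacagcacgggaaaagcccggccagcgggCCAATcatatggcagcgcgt
The first 3 hold both motifs, and Mvd, which is shown for its wide range over libraries, holds CCAAT on both strands and no TCACNCCA in its window. Over the windows, 3 of 30 held TCACNCCA, against 4.36% of the 32851 windows of the table. CCAAT stood in 66.7% of the windows of these genes and in 37.4% of all windows, and the Sp1 box GGGCGG in 80.0% and 35.7%. The palindrome TCACGTGA was in none of the 30, and in 0.974% of all windows. These are matches of letters, with no test, and show no binding.

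Libraries held 13458941 to 20762532 counted reads. Levels are CPM (read counts brought to a common library size, the usual CPM scale, with sizes scaled by TMM, the trimmed mean of M values), and changes are log2 fold changes ± SE from edgeR's quasi-likelihood test on all 24 libraries. A gene was called when its p, adjusted by Benjamini and Hochberg's method over the 13441 genes, was under 0.05; "rose" and "fell" are used only of called genes. The genes together took 0.219% ± 0.0285 of reads with casein MR, 0.301% ± 0.103 with casein control, 0.275% ± 0.0400 with elemental MR and 0.299% ± 0.0399 with elemental control (SD, n = 6). Summed hepatocyte markers held 68381 to 79020 CPM with casein MR and 108127 to 124321 with casein control, and 93681 to 101018 with elemental MR and 116215 to 126809 with elemental control. Of those 8 markers, 7 fell with casein MR and 3 with elemental MR, none was at 0, and their part in the results was not tested. In whole liver, fewer cells of a type and less RNA per cell cannot be told apart. Summed cholangiocyte markers held 23.9 to 47.2 CPM with casein MR and 42.5 to 82.1 with casein control, and 20.7 to 33.4 with elemental MR and 36.3 to 59.1 with elemental control. Of the 5 tested, 3 fell with casein MR and 1 with elemental MR. Their highest library was casein control C_C_3407, with the next at 61.0 CPM, and their part in the results was not tested. Skeletal muscle markers reached 2003 CPM in casein MR library C_MR_3438, against 70.3 CPM in the next highest library. Without it, 19 of the 29 genes were called in the casein comparison, as many as with it.

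In the casein comparison the pathway was lower with MR nearly from end to end. Of the 29 genes, 18 fell, 1 rose and 10 were not called, where 12.7% of all tested genes fell and 10.6% rose (23.3% called in either direction). The median log2 fold change was -0.69 over the 29 genes and 0.01 over all tested genes, and 25 of the 29 lay below zero. By role, 3 of 6 genes of SREBP2 control fell, 5 of 8 of the mevalonate and isoprenoid steps, 2 of 3 from squalene to lanosterol and 7 of 9 from lanosterol to cholesterol, while in the last group Stard4 fell and Soat2 rose. In the elemental comparison 4 of the 29 fell, 1 rose and 24 were not called, where 6.64% of all tested genes fell and 6.78% rose (13.4% called). There the median was -0.25 over the 29 genes and -0.003 over all tested genes, and 22 lay below zero. The genes called with elemental MR, namely Insig2, Ebp, Sc5d, Dhcr7 and Soat2, were called in the same direction with casein MR.

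**Figure D1:**
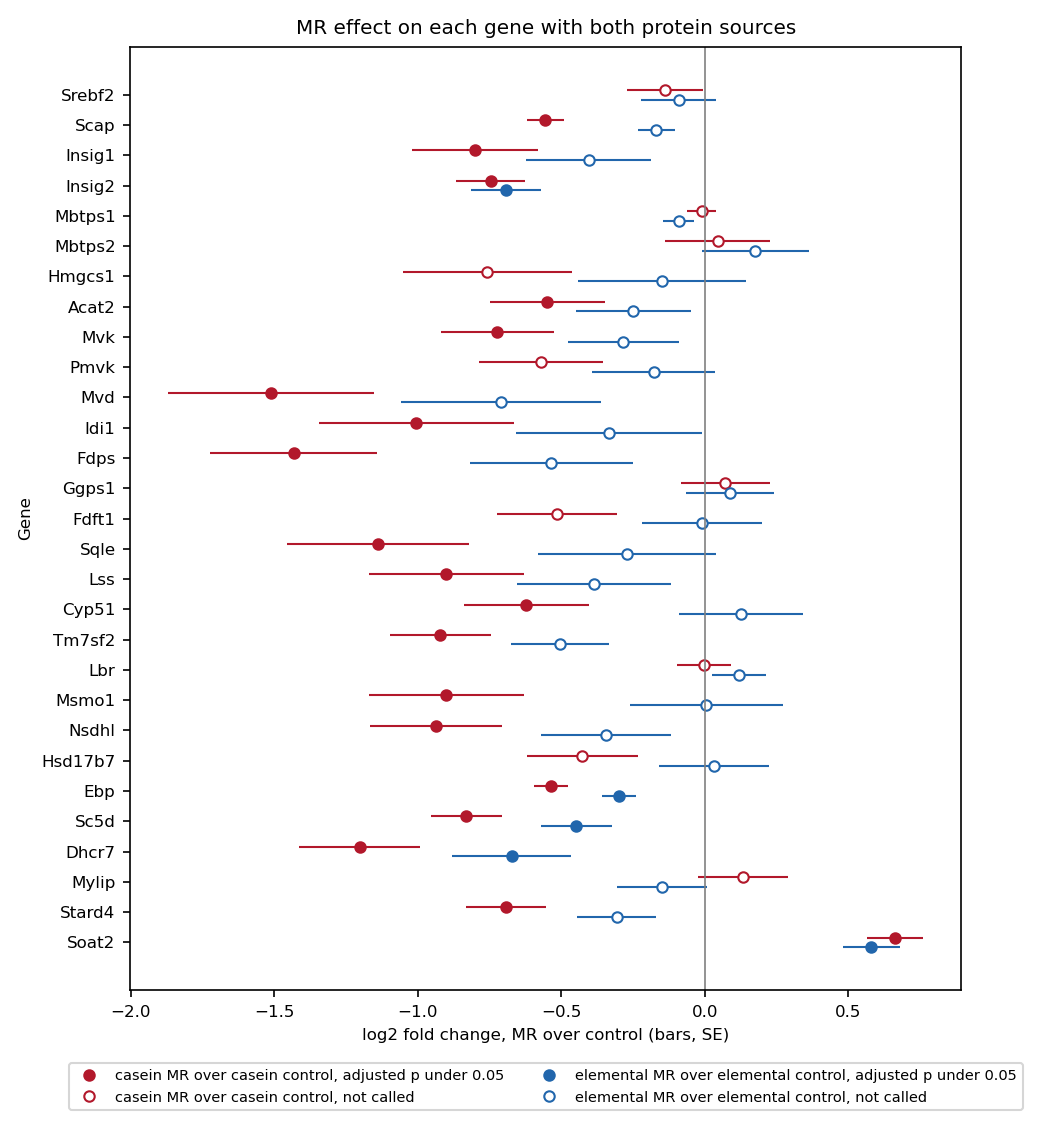
Log2 fold change of MR over control for the 29 genes (rows, in order of role), with casein above elemental in each row; bars are SE and filled points have an adjusted p under 0.05. Most casein points lie left of their elemental partners, from -1.51 for Mvd to 0.66 for Soat2.

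Among the genes that govern SREBP2, the escort and both brakes fell with casein MR, and the factor's own message was not called. Scap, the escort, held 78.3, 84.7 and 95.4 CPM (lowest library, group median and highest library) with casein MR. It held 109, 129 and 134 CPM with casein control. Every casein MR library lay below every casein control library. With elemental MR it held 99.2, 108 and 117 CPM, against 108, 118 and 136 CPM with elemental control, and these groups overlapped. Its log2 fold change was -0.56 ± 0.06 with casein MR (0.681 times the control level, edgeR adjusted p = 2.25e-07) and -0.17 ± 0.06 with elemental MR (adjusted p = 0.0845). Scap was thus lower in its casein MR libraries with a narrow spread, a coefficient of variation of 7.52% there and 7.25% in the controls. Its exons overlap 5830462I19Rik on the other strand, and the sources used here do not state whether reads were counted by strand.

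Insig2, a brake on SCAP, fell with both protein sources. It held 159, 197 and 213 CPM with casein MR, against 228, 324 and 451 CPM with casein control. With free amino acids it held 193, 198 and 244 CPM under MR, against 297, 314 and 415 CPM under control. No MR library reached its control libraries in either pair, a pattern shown in the casein pair by 6 of the 29 genes (6.18% of all tested genes) and in the elemental pair by 3 (3.59%). The fold changes of Insig2 were -0.75 ± 0.12 with casein (adjusted p = 3.22e-05) and -0.69 ± 0.12 with elemental MR (adjusted p = 2.41e-04). The difference between them was -0.05 ± 0.17, with an approximate 95% interval of -0.39 to 0.28.

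Insig1, the brake that SREBP2 itself switches on, fell with casein MR and was not called with elemental MR. It held 20.6, 28.4 and 39.8 CPM with casein MR, against 27.1, 45.1 and 82.4 CPM with casein control. Under elemental MR Insig1 held 30.5, 42.4 and 57.7 CPM, against 40.3, 63.3 and 71.3 CPM with elemental control. Both pairs overlapped, since some control libraries were as low as MR libraries. Insig1 fell with casein MR (-0.80 ± 0.22, adjusted p = 0.0082) and was at -0.40 ± 0.22 with elemental MR (adjusted p = 0.247).

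Srebf2 itself held 14.7, 19.7 and 21.8 CPM with casein MR, against 14.6, 20.2 and 32.1 CPM with casein control. In the elemental groups it held 21.7, 23.5 and 28.6 CPM with MR, against 19.1, 26.9 and 27.5 CPM with control. The casein MR libraries lay inside the range of their controls. The elemental ranges crossed only through control library E_C_3417 at 19.1 CPM and MR library E_MR_3405 at 28.6 CPM. The next lowest elemental control held 26.7 CPM, and the next highest elemental MR library 24.5 CPM. The fold changes were -0.14 ± 0.13 with casein MR (adjusted p = 0.51) and -0.09 ± 0.13 with elemental MR (adjusted p = 0.725). The casein value turned to 0.03 without casein control library C_C_3407, the highest. Neither protease was called: Mbtps1, the site-1 protease, was at -0.01 ± 0.05 with casein and -0.09 ± 0.05 with elemental MR, and Mbtps2, the site-2 protease, at 0.05 ± 0.18 with casein and 0.18 ± 0.19 with elemental MR. The casein values of both proteases changed sign when some single libraries were left out. Mbtps2 shares 2867 bases of exon with Yy2, so its reads may not all be its own.

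The mevalonate steps held the pair with the largest falls of the 29 genes with casein MR, Mvd and Fdps, and none of the steps was called with elemental MR. Mvd, which makes isopentenyl diphosphate, held 6.46, 11.4 and 18.1 CPM with casein MR, against 7.43, 25.3 and 75.6 CPM with casein control. Under free amino acids it held 15.003, 17.3 and 29.2 CPM with MR, against 15.6, 33.9 and 41.4 CPM with control. Control libraries C_C_3437 and C_C_3429 lay within the casein MR range, and E_C_3417 and E_C_3430 within the elemental MR range. In each pair the control median lay above the MR range. Mvd fell by 1.51 ± 0.36 on the log2 scale with casein MR (0.351 times, adjusted p = 0.00238), and was at -0.71 ± 0.35 with elemental MR (adjusted p = 0.199).

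Fdps, which joins these units into farnesyl diphosphate, held 23.3, 40.7 and 55.8 CPM with casein MR, against 42.9, 91.8 and 213 CPM with casein control. In the elemental pair it held 48.7, 66.5 and 97.6 CPM with MR, against 61.6, 110 and 120 CPM with control. The groups of each pair overlapped at their edges. It fell with casein MR (-1.43 ± 0.29, 0.371 times, adjusted p = 5.22e-04), and was at -0.53 ± 0.28 with elemental MR (adjusted p = 0.242). At least 5 other annotated genes share 96.1% or more of a stretch of Fdps, so its level is uncertain.

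Of the other mevalonate genes, Mvk, the mevalonate kinase, fell with casein MR (-0.72 ± 0.20, adjusted p = 0.00777). Idi1, which interconverts the isoprene units, fell by 1.005 ± 0.339 (adjusted p = 0.0315) on 19 to 122 reads a library. It lost its call when any of 6 libraries was left out, namely casein control C_C_3407, C_C_3413 and C_C_3421 and casein MR C_MR_3419, C_MR_3425 and C_MR_3431, with -0.79 and adjusted p = 0.108 without C_C_3407. Under limma-voom Idi1 was not called. Acat2, whose enzyme makes acetoacetyl-CoA, stood at the threshold (-0.55 ± 0.20, adjusted p = 0.0494), and lost its call in 16 of 24 fits that each omitted 1 library, with -0.36 without C_C_3407. The call was kept without elemental control E_C_3417 or E_C_3428, elemental MR E_MR_3405 or E_MR_3420, casein control C_C_3429, C_C_3436 or C_C_3437, or casein MR C_MR_3438. The Acat2 call was also lost with DESeq2, limma-voom, no filter on low counts, 1 surrogate variable or only the groups compared. Idi1 shares 684 identical bases with Gm13502. Acat2 matches Acat3 at 97.7% over 1477 bases and Tcp1 at 98.7% over 445 bases. The values of Idi1 and Acat2 are therefore uncertain.

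Hmgcs1, which makes HMG-CoA, was not called. It held 183, 253 and 380 CPM with casein MR, against 157, 344 and 1001 CPM with casein control. Library C_C_3407 alone held the 1001 CPM and library C_C_3437 the 157 CPM, so the controls spanned the whole casein MR group. Its fold change was -0.76 ± 0.29 (adjusted p = 0.0636), -0.92 and called without C_C_3437 (adjusted p = 0.0126), and -0.33 without C_C_3407. It was also called without casein control C_C_3429 (adjusted p = 0.0351) and without casein MR C_MR_3412 (adjusted p = 0.0366). With elemental MR Hmgcs1 held 269, 372 and 515 CPM, against 262, 474 and 539 CPM with elemental control, at -0.15 ± 0.29 (adjusted p = 0.81). Pmvk, the next kinase of the chain, was at -0.57 ± 0.22 with casein MR (adjusted p = 0.0563), and was called without elemental MR E_MR_3405, casein control C_C_3429 or casein control C_C_3437, with adjusted p = 0.0497, 0.0236 and 0.0115. Pmvk was also called with 1 surrogate variable. Ggps1, which leads away from sterols to geranylgeranyl diphosphate, was at 0.07 ± 0.15 with casein and 0.09 ± 0.15 with elemental MR. Ggps1 matches Gm5630 at 97.2% over 903 bases, and its exons overlap Arid4b on the other strand. Hmgcs1 shares 462 identical bases with Gm48342 on the other strand, so some reads of both genes are uncertain.

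**Figure D2:**
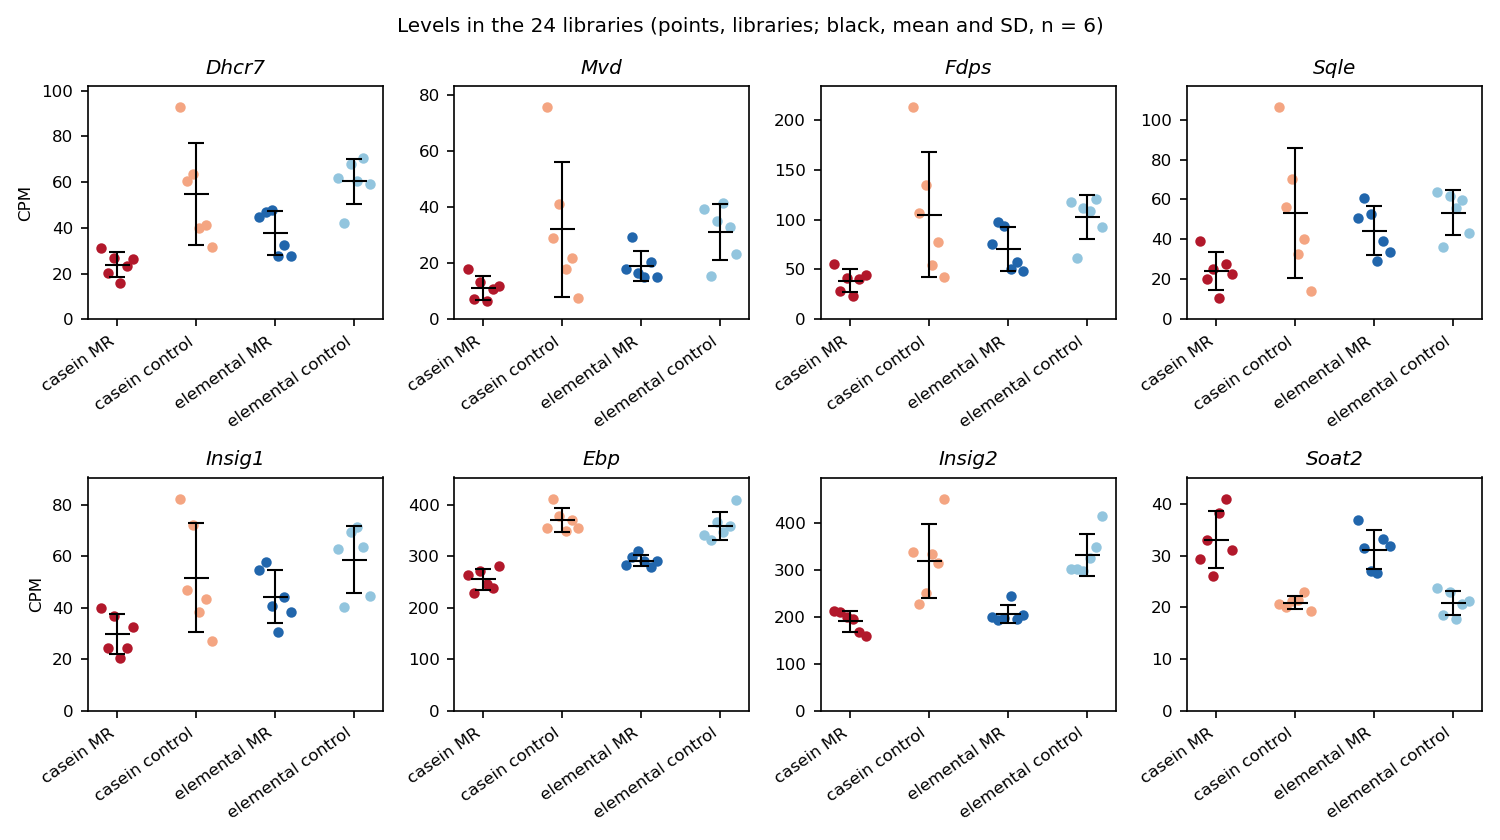
CPM of 8 of the genes in every library (points), with the mean and SD of each group of 6 in black; each vertical axis starts at 0. Casein control spreads widest for Mvd, Fdps and Sqle, while Ebp, Insig2 and Soat2 separate MR from control with both protein sources.

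Squalene is where the pathway commits to sterols. Sqle, the squalene epoxidase, held 10.6, 23.9 and 39.1 CPM with casein MR, against 14.0, 48.3 and 106 CPM with casein control. Under elemental MR Sqle held 29.1, 45.0 and 60.7 CPM, against 36.4, 57.9 and 63.5 CPM with elemental control. Only the lowest casein control libraries reached into the casein MR range, and the elemental groups overlapped over most of theirs. Sqle fell with casein MR (-1.14 ± 0.32, 0.454 times, adjusted p = 0.00888), a call that missed the threshold under limma-voom (-0.90, adjusted p = 0.0529), and was at -0.27 ± 0.31 with elemental MR (adjusted p = 0.648).

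Lss, which folds the epoxide into lanosterol, held 17.8, 22.2 and 27.3 CPM with casein MR, against 15.1, 34.4 and 79.5 CPM with casein control. It held 17.4, 28.4 and 44.7 CPM with elemental MR, against 24.6, 43.0 and 45.3 CPM with elemental control. The casein MR libraries lay inside the range of their controls, close to its lower end. Lss fell with casein MR (-0.90 ± 0.27, adjusted p = 0.0153) and was at -0.39 ± 0.27 with elemental MR (adjusted p = 0.398); the casein call was lost without library C_C_3407 (-0.59, adjusted p = 0.0848) and under limma-voom (adjusted p = 0.0895). Fdft1, the squalene synthase, was at -0.51 ± 0.21 with casein MR (adjusted p = 0.0784), -0.66 and called without C_C_3437 (adjusted p = 0.00681) and -0.28 without C_C_3407. Fdft1 shares 774 bases of exon with the abundant Ctsb on the other strand, so its level is uncertain. The exons of Lss overlap 4930483K19Rik on the other strand, which leaves some reads of Lss uncertain.

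Of the 9 genes after lanosterol, 7 fell with casein MR, and those of the last 3 steps fell with both protein sources. Ebp, which shifts a ring double bond, held 229, 255 and 282 CPM with casein MR, against 350, 362 and 411 CPM with casein control. Ebp held 279, 291 and 309 CPM with elemental MR, against 331, 352 and 409 CPM with elemental control. No MR library came within reach of its controls in either pair. Ebp fell with casein MR (-0.54 ± 0.06, adjusted p = 1.2e-07) and with elemental MR (-0.30 ± 0.06, adjusted p = 9.46e-04), and the difference of -0.24 ± 0.08 was not called (adjusted p = 0.179).

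Sc5d, the desaturase of the next step, held 256, 313 and 347 CPM with casein MR, against 361, 534 and 721 CPM with casein control. Its elemental groups held 321, 386 and 431 CPM with MR, against 444, 548 and 567.8 CPM with control. Both pairs were again fully apart, with the casein controls spread over the widest range. It fell in both (-0.83 ± 0.12 with casein, adjusted p = 1.17e-05, and -0.45 ± 0.12 with elemental MR, adjusted p = 0.0153).

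Dhcr7, which completes cholesterol by reducing its last precursor, held 15.8, 24.8 and 31.1 CPM with casein MR, against 31.5, 50.9 and 92.7 CPM with casein control. It held 27.5, 38.7 and 47.6 CPM with elemental MR, against 42.1, 61.2 and 70.4 CPM with elemental control. The casein pair was just apart, and the elemental pair overlapped through control library E_C_3417. Dhcr7 fell with casein MR (-1.20 ± 0.21, 0.435 times, adjusted p = 8.82e-05) and with elemental MR (-0.67 ± 0.21, 0.627 times, adjusted p = 0.0299). The elemental call was lost when any of 6 libraries was left out, namely elemental control E_C_3401, E_C_3418 and E_C_3428 and elemental MR E_MR_3420, E_MR_3423 and E_MR_3424, with adjusted p-values for Dhcr7 of up to 0.0742.

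A further 4 genes of this stretch fell with casein MR and were not called with elemental MR. Tm7sf2, a sterol reductase, was lower in every casein MR library (-0.92 ± 0.18, adjusted p = 2.35e-04), and was at -0.50 ± 0.17 with elemental MR (adjusted p = 0.0503). That value of Tm7sf2 was called by DESeq2 (adjusted p = 0.0279), by limma-voom (adjusted p = 0.0212), and in edgeR without elemental control E_C_3417, casein control C_C_3407 or C_C_3437, or casein MR C_MR_3412, C_MR_3425 or C_MR_3431. The same value was also called with DESeq2 size factors, upper quartile scaling, the 1 CPM filter, 1 surrogate variable or only the groups compared. It was called too without both casein controls C_C_3407 and C_C_3437. Nsdhl, which helps to strip the methyl groups at one ring carbon, fell with casein MR (-0.94 ± 0.23, adjusted p = 0.00314) and was at -0.34 ± 0.23 with elemental MR. Cyp51, the lanosterol demethylase, held 72.9, 138 and 175 CPM with casein MR, against 95.6, 198 and 308 CPM with casein control, and Msmo1, a methylsterol oxidase, held 71.7, 144 and 188 CPM, against 82.9, 231 and 469 CPM. In both, casein control library C_C_3437 lay within the casein MR range and library C_C_3407 far above it. With elemental MR Cyp51 held 155, 206 and 327 CPM, against 149, 206 and 247 CPM with elemental control, and Msmo1 180, 234 and 315 CPM, against 137, 256 and 299 CPM. The elemental groups covered each other, with fold changes of 0.13 ± 0.22 for Cyp51 and 0.01 ± 0.27 for Msmo1. With casein MR both fell (Cyp51 -0.62 ± 0.22, adjusted p = 0.0387; Msmo1 -0.90 ± 0.27, adjusted p = 0.0147). Msmo1 lost that call without library C_C_3407 (-0.61, adjusted p = 0.0759). Cyp51 lost it in 8 of the 24 fits, namely without casein control C_C_3407, C_C_3413, C_C_3421 or C_C_3436 or casein MR C_MR_3419, C_MR_3425, C_MR_3431 or C_MR_3433, with -0.44 without C_C_3407. Under limma-voom neither Cyp51 (adjusted p = 0.089) nor Msmo1 (adjusted p = 0.0612) was called. Cyp51 also lost its casein call with only the groups compared.

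The other 2 genes of the stretch were not called in either pair. Lbr, a reductase that can do the same step as Tm7sf2 and is also a protein of the nuclear envelope, was at -0.002 ± 0.095 with casein and 0.12 ± 0.10 with elemental MR. Hsd17b7, a ketosterol reductase, was at -0.43 ± 0.19 with casein MR (adjusted p = 0.119), and was called without casein control C_C_3437 (-0.54, adjusted p = 0.0296), against -0.20 without C_C_3407. It was at 0.03 ± 0.19 with elemental MR. Tm7sf2 and Lbr overlap exons of Vps51 and Dnah14, and Cyp51 overlaps exons of Akap9 on the other strand. This leaves some reads of these genes uncertain.

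Outside synthesis, 1 of the 3 genes rose with both protein sources. Soat2, which esterifies cholesterol in hepatocytes, held 26.0, 32.1 and 41.0 CPM with casein MR, against 19.4, 20.9 and 23.0 CPM with casein control. With elemental MR it held 26.7, 31.7 and 36.8 CPM, against 17.8, 20.98 and 23.8 CPM with elemental control. Every MR library exceeded every control library of its pair, which 4.82% of all tested genes did with casein MR and 3.24% with elemental MR. Soat2 rose with casein MR (0.66 ± 0.10, 1.58 times, adjusted p = 1.07e-05) and with elemental MR (0.58 ± 0.10, 1.496 times, adjusted p = 1.84e-04), and the difference was 0.08 ± 0.14 (approximate 95% interval -0.19 to 0.36).

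Stard4, a soluble carrier of sterols between membranes, held 46.2, 62.0 and 74.9 CPM with casein MR, against 58.1, 101 and 130 CPM with casein control. With elemental MR it held 72.6, 78.8 and 94.3 CPM, against 88.8, 100 and 111 CPM with elemental control. With casein only the lowest control library lay within the MR range. With free amino acids, control libraries E_C_3430 (88.8 CPM), E_C_3418 (91.9 CPM) and E_C_3417 (93.7 CPM) did. Stard4 fell with casein MR (-0.69 ± 0.14, adjusted p = 4.63e-04) and was at -0.31 ± 0.14 with elemental MR (adjusted p = 0.155). Mylip, a ubiquitin ligase that marks lipoprotein receptors for breakdown, was at 0.13 ± 0.16 with casein and -0.15 ± 0.16 with elemental MR, neither called.

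Whether MR acted more strongly with casein than with free amino acids was tested as the difference between both effects, which draws on all 24 libraries. Since the control casein may not have been oxidised, oxidation cannot be told apart from protein source in this difference. Of the 29 differences, 26 lay below zero with a median of -0.40, where the median of all tested genes was -0.001. Only Scap was called (-0.39 ± 0.09, adjusted p = 0.0171), where 2.34% of all tested genes were (0.781% above zero and 1.56% below), and the Scap call was kept in all 24 fits without 1 library. Another 5 genes had an unadjusted p under 0.05. Cyp51 differed by -0.75 ± 0.31 (adjusted p = 0.274), Msmo1 by -0.91 ± 0.38 (adjusted p = 0.284) and Fdps by -0.90 ± 0.40 (adjusted p = 0.343), and the rest were Ebp and Sc5d (-0.38 ± 0.18, adjusted p = 0.357). The intervals were wide: those of Hmgcs1 and Dhcr7 ran from -1.42 to 0.20 and from -1.10 to 0.05. That of Sqle ran from -1.74 to -0.002, although its edgeR test gave an unadjusted p of 0.0603 (adjusted p = 0.436). At 1.96 SE either side the intervals are slightly narrower than that test allows, so the Sqle interval does not show a difference. Without library C_C_3407 the differences were -0.55 for Fdps, -0.54 for Sqle, -0.18 for Hmgcs1 and -0.31 for Dhcr7. A gene called with casein MR and not with elemental MR is therefore not shown to respond differently, Scap excepted.

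Between the MR diets themselves, casein MR against elemental MR, 4 of the 29 genes fell and none rose, where 3.78% of all tested genes fell and 2.72% rose (6.5% called). These values share their libraries with both MR comparisons. Scap was lower in each casein MR library than in any elemental MR library (-0.32 ± 0.06, adjusted p = 0.00196), as were 2.66% of all tested genes. Cyp51 (-0.76 ± 0.22, adjusted p = 0.0336), Tm7sf2 (-0.65 ± 0.18, adjusted p = 0.0218) and Ebp (-0.19 ± 0.06, adjusted p = 0.0497) had overlapping groups. The count ran from 1 to 8 on leaving out 1 library. Ebp, at the threshold, lost its call in 20 of 24 fits that each omitted 1 library, kept only without elemental control E_C_3417 or E_C_3430 or casein MR C_MR_3425 or C_MR_3438. It was also lost with DESeq2 size factors (adjusted p = 0.0525), with upper quartile scaling (adjusted p = 0.0593), with no filter, with the 1 CPM filter and with only the groups compared. Cyp51 lost its call without elemental MR E_MR_3403, E_MR_3405 or E_MR_3416 or casein MR C_MR_3419 or C_MR_3431, and Tm7sf2 without elemental MR E_MR_3403 or E_MR_3416 or casein MR C_MR_3419, or with only the groups compared. The count was 1 without elemental MR E_MR_3403 or E_MR_3416 or casein MR C_MR_3419, 2 without elemental MR E_MR_3405 or casein MR C_MR_3431, and 8 without casein control C_C_3437. In all, 25 of the 29 lay below zero, with a median of -0.44.

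Between the control diets the genes lay close to zero. Casein control against elemental control, 0 of the 29 genes were called by edgeR, where 0.104% of all tested genes were (0.0298% higher and 0.0744% lower). No gene of the 29 had all its casein control libraries above or below the elemental controls, where 0.327% of all tested genes did in each direction, and 1 had an unadjusted p under 0.05. That was Srebf2 (-0.29 ± 0.13, adjusted p = 0.396). The median of the 29 was -0.009, with 13 above and 16 below zero, and 0 were called by DESeq2 or limma-voom as well.

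The genes varied together from library to library inside a diet group, most of all among the casein controls. There library C_C_3407 was the highest of its group for 20 of the 29 genes and library C_C_3437 the lowest for 23, with median deviations from the group mean of 0.73 and -0.71 (log2 CPM). Their depths, 16318266 and 14642890 reads, lay inside the range of the series. Between the highest and lowest casein control, Mvd ranged 10.2-fold, Sqle 7.61-fold, Hmgcs1 6.40-fold, Msmo1 5.66-fold, Fdps 4.96-fold and Insig1 3.04-fold. The median coefficient of variation of the 29 genes was 37.0% in casein control, where all tested genes had 15.8%. It was 17.1% in casein MR, 21.8% in elemental MR and 20.7% in elemental control, where all tested genes had 14.0%, 14.2% and 14.7%.

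**Figure D3:**
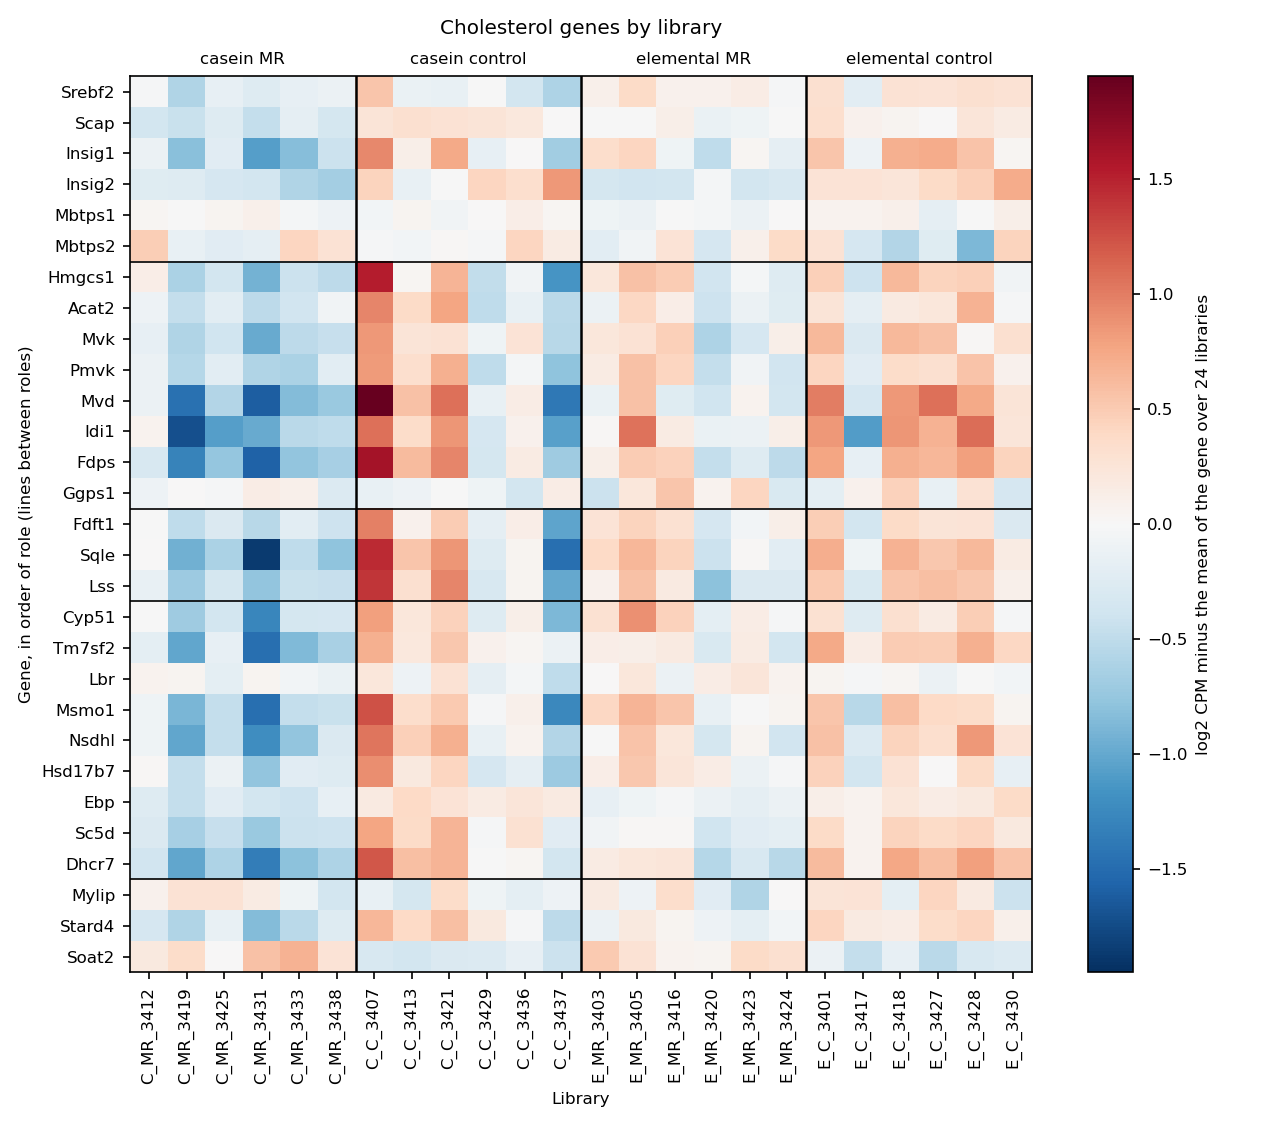
Log2 CPM of each gene (rows, in order of role) in each library (columns, by diet group) minus the gene's mean over the 24 libraries; red is above and blue below that mean. Casein control libraries C_C_3407 and C_C_3437 stand at opposite ends for most synthetic genes, and the casein MR columns are mostly blue.

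The other groups had the same kind of order on a smaller scale. In casein MR, library C_MR_3412 was highest for 20 genes and library C_MR_3431 lowest for 18. In elemental MR, library E_MR_3405 was highest for 17 and library E_MR_3420 lowest for 17, and in elemental control library E_C_3417 was lowest for 20. Fdps, Lss, Msmo1 and Sc5d lay on the same side of their group mean as the median of the other genes in all 24 libraries, and 19 of the 29 did so in at least 20. At the other end, 6 genes did so in 12 or fewer: Lbr in 12, Ggps1 in 11, Mbtps2 in 10, Mbtps1 and Soat2 in 9, and Insig2 in 7.

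Insig2 thus lay on the other side from most of the genes in 17 of 24 libraries, though not in every group. It was the highest of its group in casein control library C_C_3437 (451 CPM), where most other genes were lowest, and again in elemental MR library E_MR_3420 (244 CPM). It was also the highest of its group in casein MR library C_MR_3412 (213 CPM), where most other genes were highest too, and in elemental control library E_C_3417 it lay below its group mean with the rest (-0.13, log2 CPM). In casein control it was on the side of the others in 1 of 6 libraries. The other brake, Insig1, sided with the others in 20 of 24 libraries, and Srebf2 in 17. These are descriptions with no test, and the genes share their libraries.

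**Figure D4:**
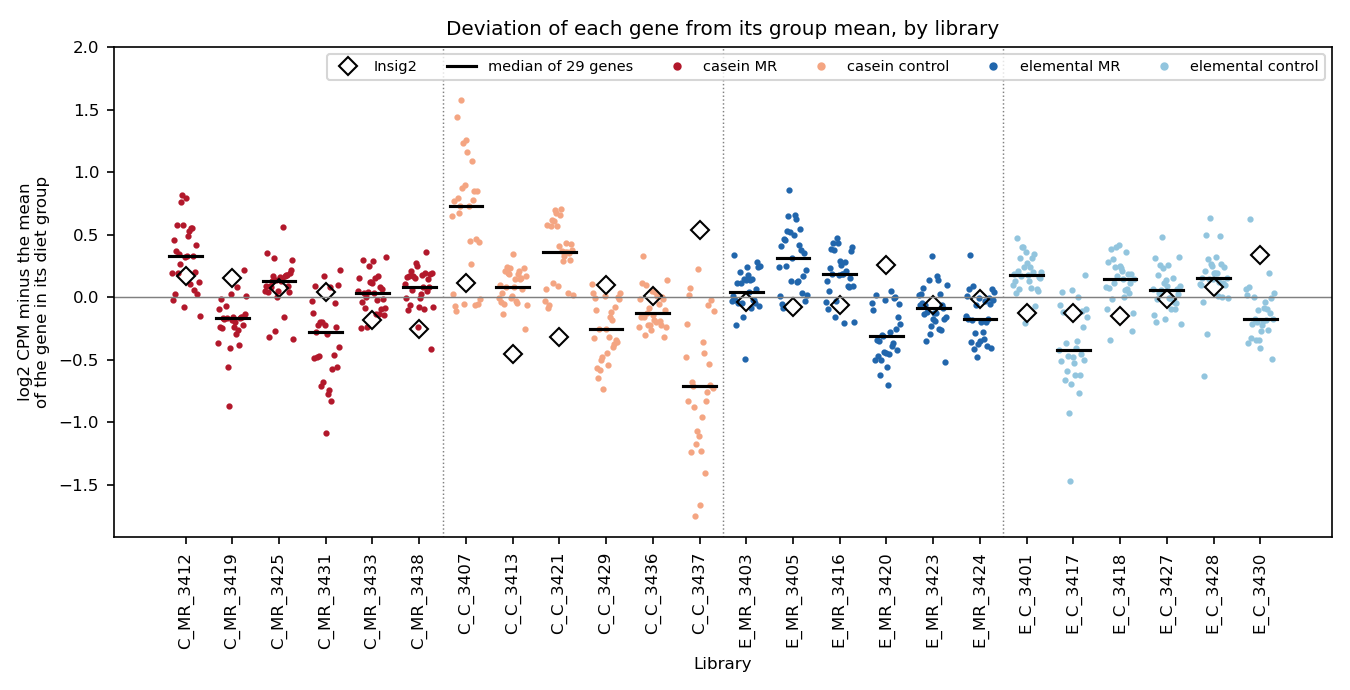
Log2 CPM of each of the 29 genes minus its mean in the diet group (points), by library; the bar is the median of the genes and the diamond is Insig2. Casein control C_C_3407 and C_C_3437 have medians of 0.73 and -0.71, and Insig2 is at 0.53 in C_C_3437 and at -0.13 in elemental control E_C_3417, the lowest library of its group.

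Leaving out both extreme casein controls, a choice made after seeing the data, gave 19 called genes in the casein comparison, as many as before but not the same ones: Acat2 was no longer called (adjusted p = 0.0779) and Fdft1 was (adjusted p = 0.0454). Without C_C_3407 alone there were 14 and without C_C_3437 alone 23. Under limma-voom there were 13.

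Per kilobase of exon, Ebp was the most abundant of the 29 messages in each group. It averaged 110 CPM per kilobase with casein MR, 160 with casein control, 126 with elemental MR and 155 with elemental control, and Sc5d 62.3, 111, 79.2 and 108 in that order. Hmgcs1 and Insig2 followed in the control groups, at 95.9 and 91.9 CPM per kilobase with casein control, and with elemental MR Hmgcs1 stood above Sc5d at 83.8. The lowest were Mbtps2 at 0.496, Ggps1 at 0.938 and Idi1 at 1.29 CPM per kilobase with casein control. Soat2 stood at 14.97 with casein MR and 9.45 with casein control, and at 14.1 with elemental MR and 9.43 with elemental control.

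Neighbouring parts of sterol metabolism were counted from 5 lists that hold none of the 29 genes. In the list of acetyl-CoA supply and electron donors, 5 of 8 genes fell and 1 rose with casein MR (median -0.80), and 3 fell and 1 rose with elemental MR (median -0.47). Of all tested genes, 12.7% fell and 10.6% rose with casein MR, and 6.64% fell and 6.78% rose with elemental MR. Cyb5r3, which feeds electrons through cytochrome b5 to sterol desaturation, fell by 1.19 ± 0.10 with casein MR (adjusted p = 4.18e-10) and by 0.83 ± 0.10 with elemental MR (adjusted p = 8.17e-07). Acss2 and Acly, which make cytosolic acetyl-CoA from acetate and citrate, fell by 1.73 ± 0.22 and 1.58 ± 0.23 with casein MR and by 1.09 ± 0.22 and 0.93 ± 0.23 with elemental MR. It was the only list of the 5 in which most genes were called with casein MR, and its members also serve fatty acid synthesis.

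In the other lists most genes were not called. The same held for all tested genes, of which 23.3% were called with casein MR and 13.4% with elemental MR. Of 8 genes for sterol-dependent degradation and SREBP processing, 1 rose with casein MR and 1 with elemental MR, with medians of -0.03 and 0.04. Rnf145, a ligase known to act on SCAP, rose with casein MR (0.77 ± 0.16, adjusted p = 6.96e-04) and was at 0.27 ± 0.16 with elemental MR, while Erlin1 (-0.22 ± 0.11) and Aup1 (-0.10 ± 0.05) were not called with casein MR. Of 8 genes of LXR and efflux, 2 fell with casein MR (median 0.01), and 2 rose and 1 fell with elemental MR (median -0.05). Srebf1, which drives fatty acid synthesis, fell by 0.77 ± 0.16 with casein MR (adjusted p = 9.58e-04) and by 0.80 ± 0.17 with elemental MR (adjusted p = 0.00148). Nr1h3, the liver X receptor alpha, fell by 0.22 ± 0.06 with casein MR (adjusted p = 0.00683), and the cholesterol exporter Abca1 was not called (-0.21 ± 0.08, adjusted p = 0.0631).

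Of 12 genes of ester turnover and sterol transport, 1 fell with casein MR (median 0.04), and 2 rose with elemental MR (median 0.04). Tmem97, a sterol-regulated membrane protein, fell by 0.38 ± 0.11 with casein MR (adjusted p = 0.00989) and was at 0.17 ± 0.11 with elemental MR, while Nceh1 (0.26 ± 0.10) and Osbp (-0.43 ± 0.21) were not called with casein MR. Of 12 genes of the isoprenoid branches, 2 fell and 1 rose with casein MR, and 1 fell with elemental MR, with medians of -0.06 in both. Rabggta, which prenylates Rab proteins, fell by 0.27 ± 0.07 in both. Zmpste24, which trims farnesylated proteins, fell by 0.23 ± 0.06 with casein MR, and Fnta, a prenyltransferase subunit, rose by 0.21 ± 0.06.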

How the data were processed

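Mouse liver RNA was sequenced in 24 libraries, 6 in each of 4 diet groups taken from the labels. The deposited raw table holds whole-number read counts per gene and library as the authors made them, and 0 of its per-sample columns were left unused. The second deposited table holds a normalized signal that equals those counts divided by 1 size factor per library (0.745 to 1.32), and only the counts were tested. How reads were aligned and counted, and on which genome build, is not given in the sources used here. Every gene in the raw table has at least 72 reads over the libraries.

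Counts were tested in R 4.3.3 with edgeR 4.0.16: filterByExpr, TMM scaling, a single quasi-likelihood fit of all libraries by group, and contrasts between groups. SE is the log2 fold change divided by the root of its F statistic, and approximate 95% intervals are 1.96 SE either side. These intervals are slightly narrower than the F test allows, so calls rest on the test and not on them. The steps were tested on simulated data. Alternatives were DESeq2 1.42.0 (size factors and Wald test), limma 3.58.1 (voom with sample weights), 1 surrogate variable (sva 3.50.0), upper quartile scaling, other filters on low counts, only the groups compared, an adjusted p under 0.01, and leaving out each library. Leaving out casein controls C_C_3407 and C_C_3437 together was added after seeing the data.

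The 29 genes and the lists were chosen with earlier results of these data known. Named are all 29 genes and, from each further list, the 3 with the smallest p in the casein comparison. The lowest and highest library and the median of each group are given for the 2 genes with the smallest p in each role. They are also given for Srebf2, Insig1, Insig2 and Sqle, and Hmgcs1, Cyp51, Msmo1 and Dhcr7 were added after their values were seen. Spring1 was matched through a RefSeq synonym. Exon lengths, overlaps and near-identical copies (95% or more over 300 bases or more) came from GENCODE M21, and promoter windows from RefSeq.

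Markers of other cell types were summed per library. Macrophage markers held 345 to 582 CPM with casein MR and 256 to 459 with casein control, and 253 to 415 with elemental MR and 296 to 464 with elemental control. Endothelial markers held 323 to 386 CPM over all libraries, stellate and fibroblast markers 351 to 510, lymphocyte and neutrophil markers 5.34 to 14.5, and erythroid markers 1306 to 7461. Of the 10 muscle markers 9 were tested, and all 9 rose with casein MR, where 10.6% of all tested genes rose. Their sum was 2003 CPM in casein MR library C_MR_3438 and 70.3 CPM in the next highest library. The lowest sum was 7.40 CPM in each casein group.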

Additional observations from a re-analysis of the deposited data

Results flagged for a closer look

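In 4 of 116 sets of 6 libraries (29 genes in 4 groups), 1 library stood apart from the rest by Dixon's criterion at the 95% level, by which chance alone flags about 5 in 100 sets. Srebf2 was lowest in elemental control library E_C_3417 at 19.12 CPM, with the next library at 26.72 CPM. Insig2 was highest in elemental MR library E_MR_3420 at 243.9 CPM, with the next at 202.8 CPM, and without that library it still fell with elemental MR. Idi1 was highest in elemental MR library E_MR_3405 at 7.466 CPM, with the next at 3.99 CPM. Mylip was highest in casein control library C_C_3421 at 8.747 CPM, with the next at 6.488 CPM.

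The MR effect on Scap differed between the protein sources, by -0.387 (log2, casein minus elemental) in the edgeR test of the difference itself, adjusted p = 0.0171. Oxidation of the casein cannot be told apart from protein source here. Scap averaged 85.7 ± 6.4 CPM with casein MR and 126 ± 9.14 CPM with casein control, and 107 ± 5.94 CPM with elemental MR and 120 ± 10.5 CPM with elemental control (SD, n = 6).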

How the results depend on the processing

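The calls rest on 6 libraries a group, and genes with few reads, such as Idi1 with 19 to 122, have wide errors. Where a value moved, the cause was not tested. No paired analysis was possible because the library numbers are unique and no number is shared between groups.

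With casein MR the number of the 29 genes called was 13 to 19 under the other tools and filters and 14 under an adjusted p under 0.01, and 14 to 23 on leaving out 1 library. With elemental MR it was 8 when only those groups were fitted, 3 under an adjusted p under 0.01, and 4 to 6 on leaving out 1 library. For the difference it was 0 under 0.01. Between the MR diets it was 11 with only those groups, 11 without both casein controls C_C_3407 and C_C_3437, 1 under 0.01, and 1 to 8 on leaving out 1 library. Over all tested genes, calls under 0.01 were 974 with elemental MR, 153 for the difference, 450 between the MR diets and 3 between the control diets. Between the control diets all-gene calls were 90 with DESeq2, 3 with limma-voom, 7 with only those groups, and 5 to 33 on leaving out 1 library.

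Among the values given in the text, signs changed for the following, none of them called. Lbr with casein MR was 0.003 with upper quartile scaling, 0.006 with no filter and with the 1 CPM filter, and 0.017 with limma-voom. Msmo1 with elemental MR was -0.006 with upper quartile scaling and -0.014 with limma-voom. The difference for Insig2 was 0.133 without both casein controls. On leaving out 1 library, values with casein MR ran from -0.214 to 0.031 for Srebf2, -0.029 to 0.021 for Mbtps1, -0.035 to 0.128 for Mbtps2 and -0.069 to 0.07 for Lbr. With elemental MR they ran from -0.007 to 0.176 for Ggps1, -0.094 to 0.068 for Fdft1, -0.026 to 0.207 for Cyp51, -0.113 to 0.078 for Msmo1 and -0.051 to 0.107 for Hsd17b7. The difference for Insig2 ran from -0.125 to 0.079.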
